A study of Mus musculus with 6 samples.

Results

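Claudins, occludin and the junctional adhesion molecule F11r are the membrane proteins of tight junctions, the belts that seal neighbouring epithelial cells to each other. The 8 genes described here are Cldn1, Cldn3, Cldn4, Cldn6, Cldn7, Cldn8, Ocln and F11r, out of 18193 genes with a probe set of their own in the array's annotation. They were found as every probe set annotated with exactly 1 gene symbol, that symbol being 1 of these genes, which gave 16 probe sets of 45037. No probe set with several symbols included a member. Signals are linear intensities in arbitrary units from the MAS5 summary of each probe set's oligonucleotides. Since each probe set binds with its own strength, they are compared between arrays and not between genes. Of the 16, 13 lay above a filter on dim probe sets, the 40th percentile of mean log2 signal, which is a linear signal of 14.7, and were tested, with at least 1 for each of the 8 genes, and 3 lay below it.

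Claudins set which ions and small solutes pass between epithelial cells, because each tight junction strand is a polymer of whichever claudins the cell makes. Occludin and F11r (also called JAM-A) join these strands, and scaffold proteins such as ZO-1 (Tjp1) tie them to actin and to the polarity machinery. In the kidney the ureteric bud, whose branches grow into the collecting duct system, and the first nephron epithelia carry such junctions, while the mesenchyme around them does not form them. Beta-catenin, the protein removed in this study, binds E-cadherin in the adherens junction just below the tight junction and also acts in the nucleus as the carrier of canonical Wnt signals.

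The study compared 3 arrays of Hoxb7-Cre,Gfp beta-catenin conditional knockout kidneys with 3 arrays of normal mouse kidneys, all taken at embryonic day 12.5. In the knockout, loxP sites around exons 2 to 6 of the beta-catenin gene meet Cre driven by Hoxb7, whose promoter acts in the Wolffian duct and ureteric bud, so mesenchyme, stroma and vessels keep the gene. The labels give no genotype for normal kidneys and no number of animals per vial, and whole kidneys were measured. The 3 knockout samples are labelled as such in title and source name, but their description field is worded as for normal kidneys; groups and directions here follow the titles. The titles call the samples of a group biological replicates, and dissected tissue was sorted at random into vials; separate litters are not stated, so the p-values rest on the variation among vials.

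Ctnnb1, the targeted gene, was not lower in the knockout. Its brightest probe set read 6777, 6779 and 6586 in knockout replicates 1 to 3, against 5707, 6760 and 6549 in normal replicates 1 to 3 (log2 difference 0.09, SE 0.08; limma adjusted p = 0.695). Where its probes lie relative to the deleted exons is not analysed here, so this reading is no check on the labels. Log2 signals over the 27022 probe sets kept correlated at 0.973 to 0.977 among knockout arrays, at 0.961 to 0.971 among normal arrays and at 0.951 to 0.974 between the groups. Of 25 ureteric epithelium genes, 22 were above the filter, and Hoxb7 itself was below it, reading 7.6 at most. Of 12 nephron progenitor genes, 12 were above the filter, as were 10 of 10 stromal genes.

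For no tight junction membrane gene did the difference between knockout and normal kidneys pass the test, and most differences were small. Of the 13 member probe sets tested, 0 passed at a Benjamini-Hochberg adjusted p under 0.05 in limma, a linear model of log2 signal with moderated variances, where 0.581% of all 27022 probe sets did. At an unadjusted p under 0.05 the count was also 0 of 13, where 11.5% of all probe sets had such a p. The log2 differences, knockout minus normal, ran from -0.18 to 0.48, with 7 above and 6 below zero and a median of 0.06. Over all probe sets kept the median was -0.01. The median size of the difference without its sign was 0.13 in the members and 0.17 over all probe sets kept, and the median SE was 0.17 and 0.19. For 9 of the 13, the 95% interval of the difference lay within a 1.5-fold change in either direction, and for 12 it lay within a 2-fold change. The probe set that reached past 2-fold was the brighter one of Cldn1. In bulk kidney, fewer epithelial cells and less RNA per epithelial cell cannot be told apart.

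**Figure D1:**
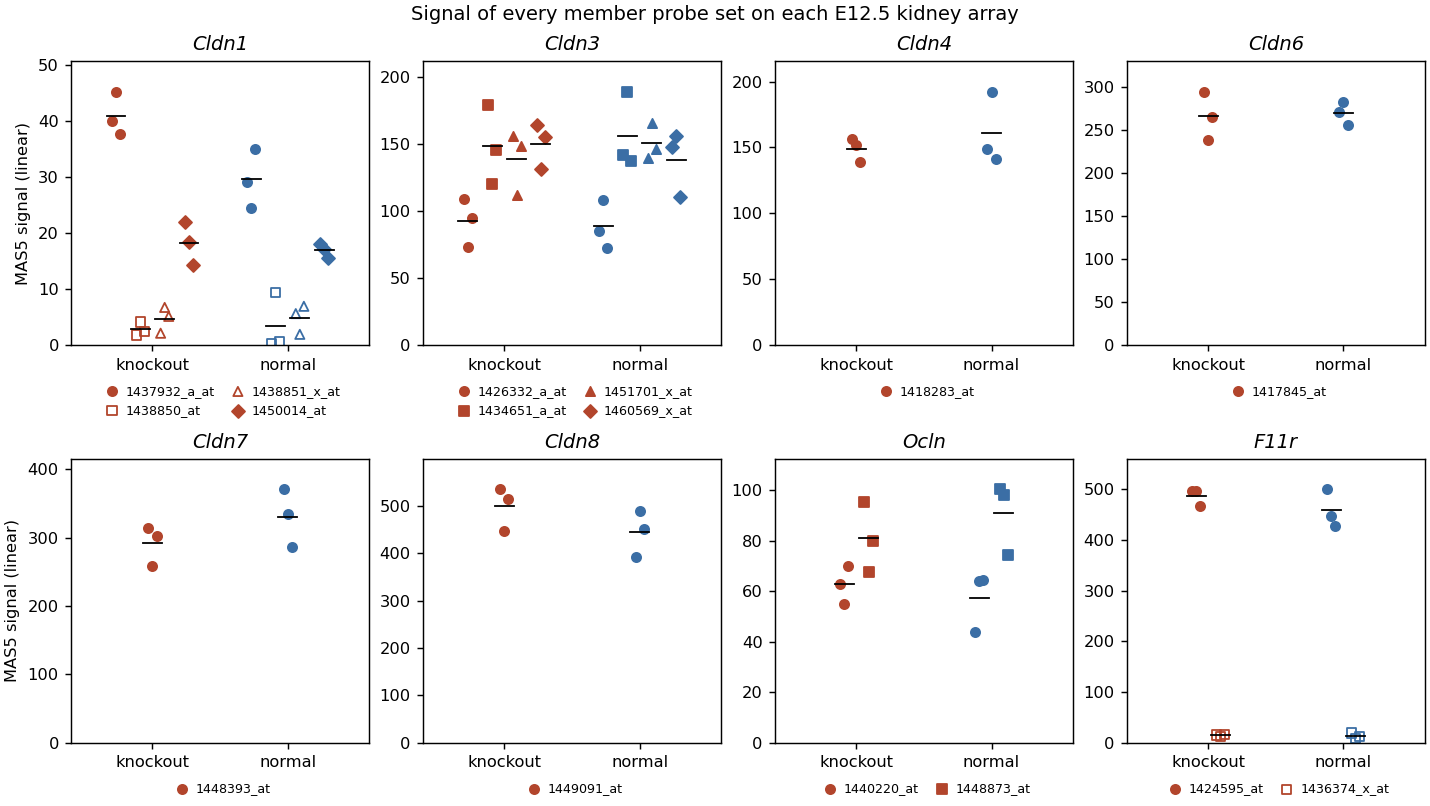
MAS5 signal on a linear axis for every probe set of the 8 genes, with knockout arrays in red to the left and normal arrays in blue to the right of each panel; each point is 1 array, each marker shape 1 probe set, black bars are group means and open markers are the 3 probe sets below the filter. The groups overlap for every filled marker except the circles of Cldn1, whose knockout arrays read 37.6 to 45.2 and whose normal arrays read 24.5 to 35.0.

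Cldn3 and Cldn4 form a pair of neighbouring genes on chromosome 5, and both proteins are typical of tight, simple epithelia, where they are also the receptors of a bacterial enterotoxin. The brightest of the 4 Cldn3 probe sets (1434651_a_at) read 179, 120 and 146 in knockout replicates 1 to 3, against 142, 189 and 138 in normal replicates 1 to 3. Knockout replicate 2 and normal replicate 2 lay at the ends of this range, and the groups overlapped. Its log2 difference was -0.08 (SE 0.19; limma adjusted p = 0.895). The other Cldn3 probe sets differed by -0.13, 0.06 and 0.13, with limma adjusted p from 0.789 to 0.936, so the sign was not shared. Within the groups, the 4 probe sets shared part of the order of the arrays. Knockout replicate 2 was the lowest knockout array in 4 of 4 and normal replicate 2 the highest normal array in 4 of 4. The lowest normal array was replicate 1 in 1451701_x_at and replicate 3 in the others. Some of these probe sets carry the suffix _x_at, which Affymetrix gives to sets with probes that may also bind other transcripts.

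Cldn4 read 156, 152 and 139 in knockout replicates 1 to 3, against 149, 193 and 142 in normal replicates 1 to 3. Normal replicate 2 stood above the other 5 arrays, which spanned 139 to 156. The log2 difference was -0.10 (95% interval from -0.44 to 0.24; limma adjusted p = 0.829). Without normal replicate 2 it was 0.04, so its sign rested on that array.

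Cldn6, a claudin of embryonic epithelia that is largely lost in adult tissue, read 294, 238 and 264 in knockout replicates 1 to 3, against 271, 282 and 255 in normal replicates 1 to 3. The normal arrays lay inside the knockout range. Its log2 difference was -0.02 (95% interval from -0.28 to 0.24; limma adjusted p = 0.953). Its neighbour on chromosome 17, Cldn9, differed by 0.03 (SE 0.19; limma adjusted p = 0.960).

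Cldn7, a claudin of ureteric and collecting duct epithelium that binds the adhesion protein Epcam, read 314, 259 and 303 in knockout replicates 1 to 3. It read 371, 334 and 287 in normal replicates 1 to 3. The knockout mean was 292 ± 29.0 and the normal mean 330 ± 42.3 (SD, n = 3 each), with normal replicate 3 inside the knockout range. The log2 difference was -0.18 (95% interval from -0.47 to 0.12; limma adjusted p = 0.620), the lowest value among the 13 member probe sets. Epcam was 434, 300.0 and 362 in the same knockout arrays, against 470, 454 and 377 in the normal arrays. Its log2 difference was -0.26 (SE 0.15; limma adjusted p = 0.540), and its other probe set, dimmer, was at 0.15 (SE 0.37).

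Cldn8, which in the mature collecting duct takes part in the chloride-permeable junction together with Cldn4, read 535, 447 and 516 in knockout replicates 1 to 3, against 392, 489 and 451 in normal replicates 1 to 3. Of the knockout arrays, replicates 1 and 3 were above all normal arrays and replicate 2 was inside the normal range. The means were 499 ± 46.4 in knockout and 444 ± 48.7 in normal kidneys (SD, n = 3 each). The log2 difference was 0.17 (95% interval from -0.09 to 0.43; limma adjusted p = 0.595).

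Cldn1, the claudin that makes the skin water-tight, had the highest difference of the members, from dim signals. Its brighter probe set (1437932_a_at) read 39.9, 45.2 and 37.6 in knockout replicates 1 to 3, against 29.1, 24.5 and 35.0 in normal replicates 1 to 3. All knockout arrays lay above all normal arrays, as they did for 9.17% of all probe sets kept, and the gap between the nearest arrays was that of 37.6 in knockout replicate 3 against 35.0 in normal replicate 3. The log2 difference was 0.48 (95% interval from -0.08 to 1.05; limma adjusted p = 0.497, unadjusted p = 0.0862). A second kept probe set (1450014_at) read 21.9, 18.4 and 14.3 in knockout replicates 1 to 3, against 18.0, 17.2 and 15.6 in normal replicates 1 to 3. Those groups overlapped, and the difference was 0.08 (SE 0.34; limma adjusted p = 0.943). The brighter set thus read 24.5 to 45.2 and the second 14.3 to 21.9, where the filter level was 14.7. The other 2 Cldn1 probe sets were below it on every array: 1438850_at read 1.8 to 4.1 in knockout and 0.3 to 9.4 in normal arrays, and 1438851_x_at read 2.1 to 6.7 in knockout and 1.9 to 6.9 in normal arrays. The interval of the second kept probe set, from -0.68 to 0.85, contains the 0.48 of the brighter one.

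Ocln encodes occludin, which shares its MARVEL membrane domain with tricellulin (Marveld2), its neighbour on chromosome 13. Its brighter probe set (1448873_at) read 95.2, 67.7 and 79.9 in knockout replicates 1 to 3, against 100.3, 98.2 and 74.4 in normal replicates 1 to 3. The groups overlapped, and the log2 difference was -0.17 (SE 0.20; limma adjusted p = 0.771). The dimmer probe set (1440220_at) read 63.0, 55 and 70.1 in knockout replicates 1 to 3, against 43.7, 63.8 and 64.3 in normal replicates 1 to 3. There the difference was 0.15 (SE 0.22; limma adjusted p = 0.830), opposite in sign to that of the brighter set. Tricellulin, which seals the corners where 3 cells meet, differed by 0.04 (SE 0.21; limma adjusted p = 0.958).

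F11r encodes an immunoglobulin-family adhesion molecule that binds the polarity protein Pard3 and is also made by platelets, leukocytes and endothelium. It read 496, 496 and 467 in knockout replicates 1 to 3, against 499.7, 447 and 428 in normal replicates 1 to 3. The highest array was normal replicate 1, and the groups overlapped. The log2 difference was 0.09 (95% interval from -0.13 to 0.30; limma adjusted p = 0.750), the narrowest interval among the members. Its second probe set (1436374_x_at) was below the filter, at 12.5 to 17.0 in knockout and 8.3 to 19.2 in normal arrays.

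**Figure D2:**
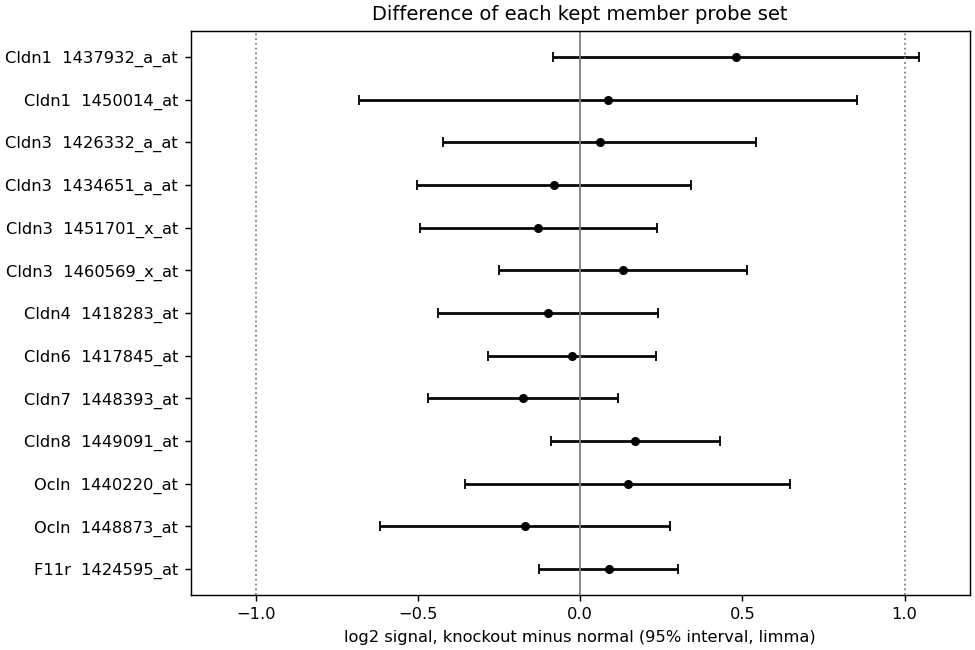
Difference in log2 signal, knockout minus normal, of the 13 member probe sets above the filter; points are the limma estimates, bars their 95% intervals, and dotted lines mark a 2-fold change in either direction. All 13 intervals include zero, and the first Cldn1 bar, which ends at 1.05, is the one that crosses a dotted line.

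The promoters of the members were compared as sequence, since tight junction genes are known targets of repressors of the Snail and Zeb families, which bind the E-box CACCTG, and canonical Wnt signals act through TCF/LEF proteins. The RefSeq table (build GRCm38.p6) held 9 windows for 7 of the 8 genes, with 2 each for Cldn7 and Ocln, those of Ocln overlapping, and the 250 bases before each annotated start were searched on both strands. CACCTG was present in 5 of the 9 windows, belonging to Cldn4, Cldn6, Cldn7, Ocln and F11r, and in 17.2% of all 32851 windows of that length. A TCF/LEF match, which is CTTTGTT in Cldn4 and could equally be CTTTGAA or be written with other last bases as CTTTGAT or else as CTTTGTA, was present in 1 of 9 windows, that of Cldn4, and in 14.8% of all windows. The Grainyhead-like motif AACCGGTT was present in 0 of 9 and in 0.116% of all windows. These motifs do not overlap each other in the members' windows, they were chosen with the members known, and a match describes letters only.

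Of the windows, 4 are shown: 3 that hold the E-box, and that of Cldn1, which holds neither motif and whose brighter probe set had the highest difference. Capitals mark CACCTG or its reverse complement CAGGTG and, in Cldn4, the TCF/LEF match. They lie at chr5:134946935-134947184 on the minus strand for Cldn4, chr17:23679115-23679364 on the plus strand for Cldn6, chr1:171437311-171437560 on the plus strand for F11r and chr16:26371840-26372089 on the minus strand for Cldn1.
Cldn4: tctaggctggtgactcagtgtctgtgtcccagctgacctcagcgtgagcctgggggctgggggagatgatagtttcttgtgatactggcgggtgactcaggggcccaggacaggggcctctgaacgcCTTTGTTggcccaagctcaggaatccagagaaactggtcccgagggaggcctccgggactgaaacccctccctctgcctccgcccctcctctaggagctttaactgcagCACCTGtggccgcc
Cldn6: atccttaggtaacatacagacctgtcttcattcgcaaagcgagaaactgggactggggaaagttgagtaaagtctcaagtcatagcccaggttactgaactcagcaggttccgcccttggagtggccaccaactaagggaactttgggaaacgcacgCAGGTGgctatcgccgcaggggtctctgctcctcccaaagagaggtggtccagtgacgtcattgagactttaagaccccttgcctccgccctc
F11r: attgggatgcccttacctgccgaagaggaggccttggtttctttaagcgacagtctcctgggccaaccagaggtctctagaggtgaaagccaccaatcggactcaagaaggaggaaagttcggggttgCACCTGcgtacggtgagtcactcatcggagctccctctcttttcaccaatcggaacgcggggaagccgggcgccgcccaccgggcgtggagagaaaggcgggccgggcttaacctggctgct
Cldn1: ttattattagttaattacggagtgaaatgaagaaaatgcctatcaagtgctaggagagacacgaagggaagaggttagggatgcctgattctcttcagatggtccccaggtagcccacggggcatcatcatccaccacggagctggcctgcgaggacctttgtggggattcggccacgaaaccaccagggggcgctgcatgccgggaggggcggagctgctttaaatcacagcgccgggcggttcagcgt
The E-box of Cldn4 begins 14 bases before the start and its TCF/LEF match 123 bases before it. The E-box begins 93 bases before the start in Cldn6 and 122 bases before it in F11r. The 3 genes with an E-box shown had differences of -0.10, -0.02 and 0.09, all with intervals that include zero. Cldn7 and Ocln, whose E-box windows are not shown, were at -0.18 and -0.17 by their brightest probe sets. The dimmer Ocln probe set was at 0.15, and these intervals include zero too. Cldn3, whose window is not shown, also holds neither motif. It was at -0.08 by its brightest probe set, with its other sets from -0.13 to 0.13. Cldn1 was at 0.48 and 0.08 by its kept probe sets.

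Within each group, the members' mean and that of the ureteric epithelium genes put the arrays with the highest and lowest values in the same places. The mean log2 signal of the 8 genes, each by its brightest probe set and set against the normal arrays' mean, was 0.15, -0.08 and 0.00 in knockout replicates 1 to 3, against 0.01, 0.08 and -0.09 in normal replicates 1 to 3. For the 22 ureteric epithelium genes it was 0.09, -0.28 and -0.12 in knockout replicates 1 to 3, against 0.02, 0.07 and -0.09 in normal replicates 1 to 3. In both sets knockout replicate 1 and normal replicate 2 were high, and knockout replicate 2 was low. Knockout replicate 2 was the lowest knockout array for 9 of the 13 member probe sets, where 32.9% of all probe sets kept had it lowest. By gene it was the lowest for 5 of the 8 members and 14 of the 22 ureteric genes, where 35.3% of all genes had it lowest. The members at the bottom of that array were Ocln at -0.41, Cldn3 at -0.36, Cldn7 at -0.34 and Cldn6 at -0.17, while Cldn1 stood at 0.63 and F11r at 0.12. By its brighter probe set Cldn1 thus ran opposite to both means on that array, though not to every gene in them. The mean over all 6 claudins was 0.16, -0.05 and 0.03 in knockout replicates 1 to 3, against -0.04, 0.09 and -0.05 in normal replicates 1 to 3. Over only Cldn3, Cldn4, Cldn6 and Cldn7 it was 0.06, -0.24 and -0.11 in knockout replicates 1 to 3. In normal replicates 1 to 3 that smaller set was at -0.01, 0.16 and -0.15. It holds just the claudins whose brightest probe set was lower in the knockout, and leaves out Cldn1 and Cldn8. Knockout minus normal was 0.05 over all 6 and -0.10 over the smaller set.

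**Figure D3:**
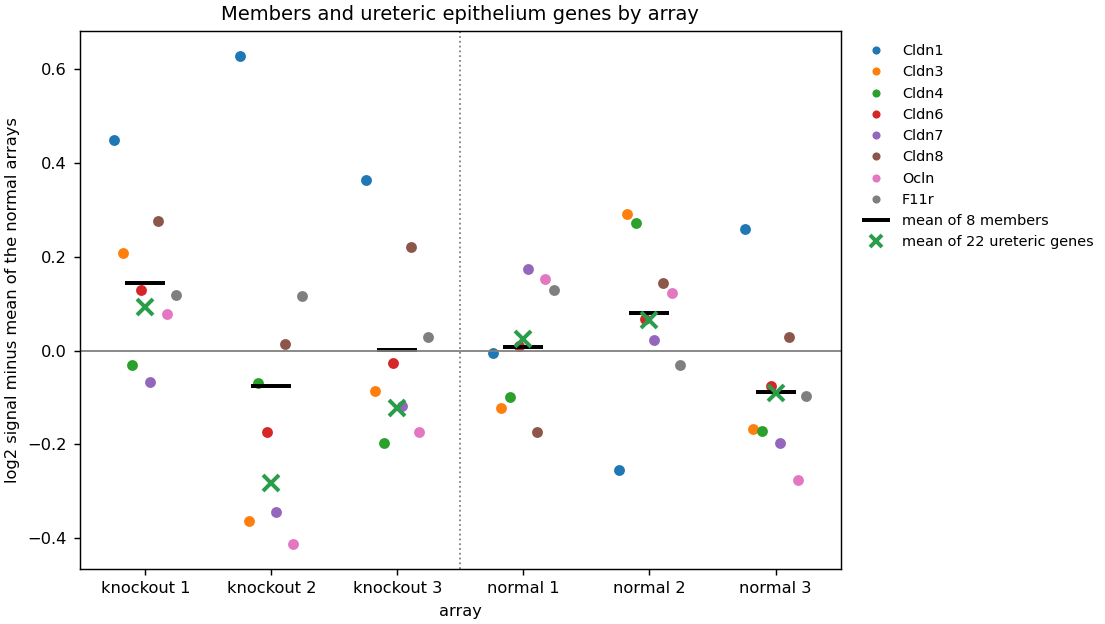
Log2 signal of each member gene (coloured points, brightest probe set) on each of the 6 arrays, set against the normal arrays' mean, with knockout arrays on the left; black bars are the mean of the 8 members and green crosses the mean of 22 ureteric epithelium genes. Both means are lowest among the knockout arrays in replicate 2, at -0.08 and -0.28, where the blue point of Cldn1 stands apart at 0.63.

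The ureteric epithelium genes fixed by name did not pass the test either. E-cadherin (Cdh1), the adherens junction partner of beta-catenin, read 499, 400 and 345 in knockout replicates 1 to 3, against 291, 345 and 351 in normal replicates 1 to 3 (log2 difference 0.32, SE 0.15; limma adjusted p = 0.444). The keratin Krt8 differed by -0.13 (SE 0.15; limma adjusted p = 0.771) and the ureteric bud ligand Wnt9b by -0.04 (SE 0.21; limma adjusted p = 0.957). Of the 22 ureteric genes 8 were higher and 14 lower, and 0 passed the limma test, where 0.602% of all 12464 genes did. An unadjusted limma p under 0.05 was found for 1, where 11.7% of all genes had one. The 22 differences ran from -0.56 to 0.33. The median difference was -0.07 over the ureteric genes, -0.05 over the 8 members and -0.003 over all genes.

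Markers of several other cell types varied widely between arrays, and their part in the member values was not tested. Skeletal muscle genes (9 of 10 above the filter) summed to a signal of 1137, 6706 and 495 in knockout replicates 1 to 3, against 461, 403 and 507 in normal replicates 1 to 3. Knockout replicate 2, the array with the lowest mean of the ureteric epithelium genes, held the most. All 9 were higher in the knockout, with a median difference of 1.80. Of them 4 had an unadjusted limma p under 0.05 (11.7% of all genes), and 0 passed. Their mean log2 deviation was 1.44, 3.94 and -0.04 in knockout replicates 1 to 3. Macrophage genes (10 of 10) summed to 997 to 1461 in knockout and 510 to 1105 in normal arrays. Of the 10, 9 were higher in the knockout and 1 lower, with a median difference of 0.59. An unadjusted limma p under 0.05 was found for 2 (11.7% of all genes), and 0 passed. The 5 erythroid genes of 10 above the filter summed to 11595 to 14836 in knockout and 10064 to 12404 in normal arrays, sums made up mostly of the embryonic globin Hbb-y, whose log2 difference was 0.07. All 5 were higher in the knockout, with a median difference of 0.98 and 3 at an unadjusted limma p under 0.05 (11.7% of all genes), namely Alas2 (1.25), Slc4a1 (0.98) and Klf1 (0.86), and 0 passed. The endothelial genes (10 of 10) summed to 1836 to 1991 in knockout and 1670 to 2483 in normal arrays. Chromaffin and neural genes (8 of 10) summed to 317 to 1280 in knockout and 276 to 1722 in normal arrays. Gonad and adrenal cortex genes were above the filter for 2 of 10, which summed to 45.5 to 64.7 in knockout and 57.3 to 148.7 in normal arrays, highest in normal replicate 1. Of their list, Nr5a1 read up to 53.5, Pou5f1 up to 52.1 and Ddx4 up to 42.9 on single arrays, while Cyp17a1 and Amh read 2.2 at most. Early nephron epithelium genes (11 of 12) summed to 3181 to 3658 in knockout and 4430 to 4746 in normal arrays. The largest part of each sum was Ccnd1, at 1526 to 1734 in knockout and 1818 to 2224 in normal arrays. Of the 11, 11 were lower in the knockout, with a median difference of -0.32. The limma test was passed by 0, where 0.602% of all genes passed. An unadjusted limma p under 0.05 was found for 7, where 11.7% of all genes had one.

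No call came from the other genes of the tight junction. Of 66 list entries in 3 roles, 60 had a probe set here and 49 were above the filter; 0 of the 49 passed the limma test, where 0.602% of all genes did. Of the 49, 22 were higher and 27 lower, 1 had an unadjusted p under 0.05, where 11.7% of all genes had one, and the median difference was -0.004. Among 16 other membrane proteins 8 were higher and 8 lower. The 4 with the smallest p were Jam2, a junctional adhesion molecule of endothelium, at 0.54 (SE 0.31), the polarity protein Crb3 at -0.34 (SE 0.20), the lipolysis-stimulated receptor Lsr of tricellular junctions at -0.34 (SE 0.29) and the endothelial adhesion molecule Esam at 0.16 (SE 0.14). Their limma adjusted p ran from 0.538 to 0.682. Jam2 was dim, at 28.6 to 45.7 in knockout and 18.5 to 28.8 in normal arrays. Its other kept probe sets were at 0.26 (SE 0.41) and 0.28 (SE 0.40). Cldn5, the claudin of endothelium, was at 0.01 (SE 0.11). Crb3 read 76.3, 50.9 and 69.4 in knockout replicates 1 to 3, all below the 79.0, 85.4 and 81.2 of normal replicates 1 to 3. The groups did not overlap for 2 of the 16, Crb3 included, nor for 19.3% of all genes. The other kept Crb3 probe sets were at -0.20 (SE 0.24) and 0.21 (SE 0.26), so 2 of 3 were lower.

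Of 22 cytoplasmic plaque and polarity genes, 8 were higher and 14 lower. The scaffold Tjp1 (ZO-1) read 1329, 1425 and 1387 in knockout replicates 1 to 3, against 1174, 1460 and 1327 in normal replicates 1 to 3, a log2 difference of 0.07 (SE 0.09; limma adjusted p = 0.809). The smallest p belonged to Arhgef11 at -0.30 (SE 0.16), the angiomotin Amot at 0.18 (SE 0.11), cingulin (Cgn) at -0.35 (SE 0.23) and the atypical protein kinase Prkcz at -0.41 (SE 0.30), with limma adjusted p from 0.503 to 0.623. The other kept Amot probe sets were at 0.08 (SE 0.305) and -0.07 (SE 0.21), so the sign was not shared. Cingulin read 65.3, 59.7 and 65.1 in knockout replicates 1 to 3, against 113, 65.9 and 69.9 in normal replicates 1 to 3. Its groups did not overlap, as for 19.3% of all genes, and the difference was -0.10 without normal replicate 1.

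Among 11 regulators of tight junction genes, the E-box repressor Zeb2 had the smallest p. Its brightest probe set read 249.8, 266 and 233 in knockout replicates 1 to 3, against 196, 197 and 224 in normal replicates 1 to 3 (log2 difference 0.28, SE 0.11; limma adjusted p = 0.409). A second Zeb2 probe set (1422748_at), dimmer in normal kidneys, read 406, 296 and 373 in knockout replicates 1 to 3, against 180, 87.8 and 173 in normal replicates 1 to 3. All knockout arrays were above all normal arrays there, as for 9.17% of all probe sets kept. The log2 difference was 1.35 (95% interval from 0.75 to 1.94, limma adjusted p = 0.0789), which did not pass. The remaining kept Zeb2 probe sets were at 0.32 (SE 0.18) and -0.37 (SE 0.28), so the 4 kept sets did not share a size or a sign. Zeb2 is also made by macrophages and stroma. Of the other repressors of this kind, Snai2 was at 0.05 (SE 0.10), Zeb1 at -0.01 (SE 0.08) and Snai1 at -0.47 (SE 0.30), with Snai1 at 155 in normal replicate 1 and 63.1 to 70.8 on the other 5 arrays. Of the epithelial activators, Elf3 was at 0.33 (SE 0.20) and Grhl2 at 0.04 (SE 0.18).

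**Figure D4:**
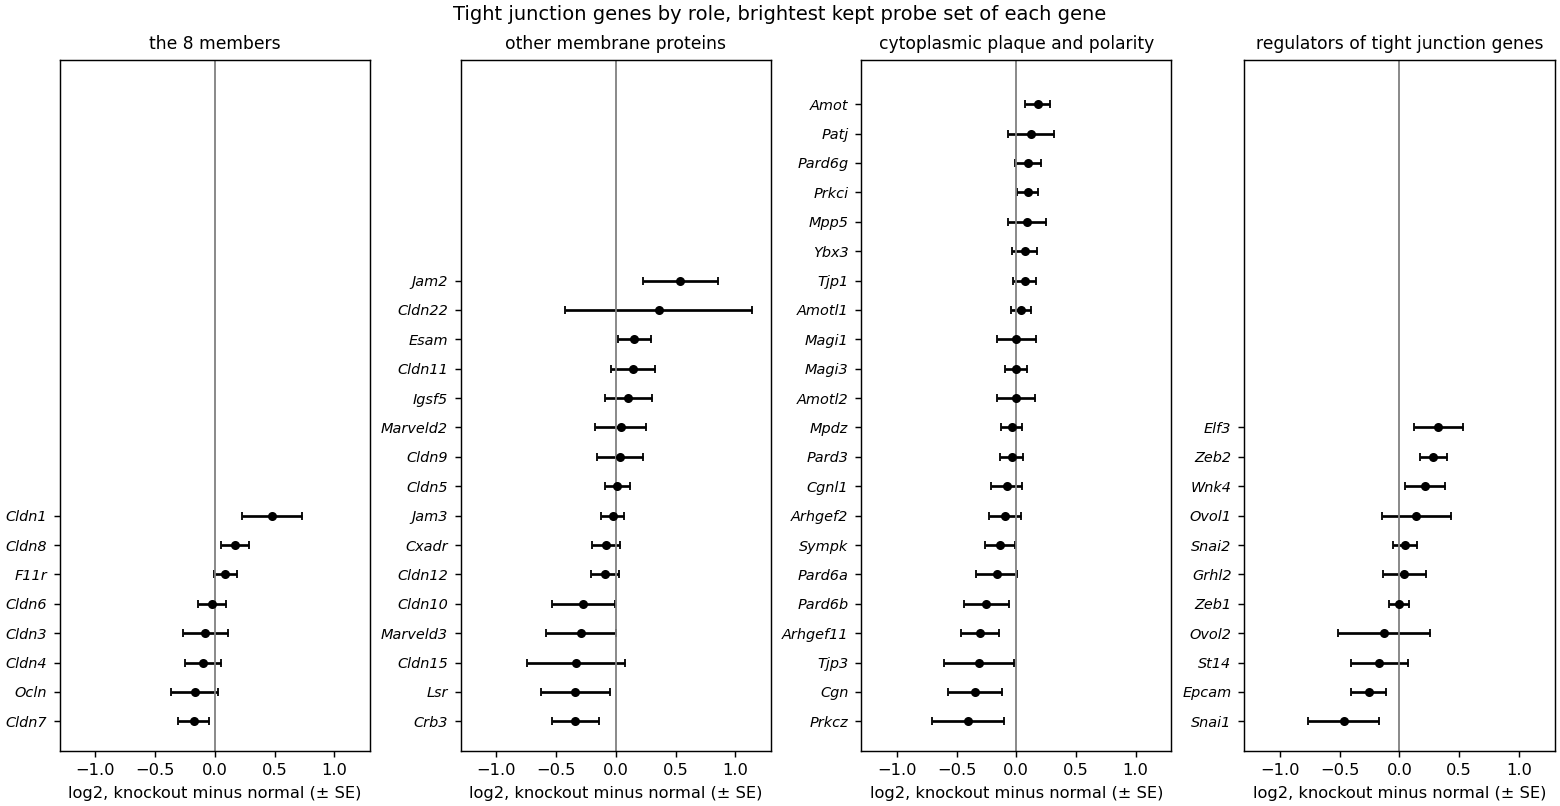
Difference in log2 signal, knockout minus normal, with its standard error, for the 8 members and for 49 other tight junction genes in 3 roles, each by its brightest probe set above the filter and sorted by the difference. None of these genes passed the limma test, and the values run from -0.47 for Snai1 to 0.54 for Jam2.

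The genes whose pattern over the 6 arrays lay nearest to the mean of the 8 members were Fibp, Dipk1b and Aunip. Their root mean square distances were 0.02, 0.03 and 0.03 on the log2 scale, against a median of 0.19 over the other 12456 genes. Their knockout minus normal differences were 0.01, -0.04 and 0.03. As these genes were picked for being nearest, their small distances and differences follow from that choice and were not read as a link to the members.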

How the data were processed

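The deposited values are 1 linear signal intensity per probe set on 6 single-colour Affymetrix arrays, which the authors computed with MAS5 according to the submitters' processing notes. Its version, parameters and detection calls are not given here, and medians per array ran from 24.9 to 32.1. The intensities were used with no further scaling. MAS5 subtracts mismatch signal, so dim values scatter on a log scale. Controls (64) were left out, the 15 zeros were replaced by 1.7 (the 10th percentile of all signals above 0), and probe sets were kept above the 40th percentile of mean log2 signal, a linear signal of 14.7. The comparison used limma 3.58.1 (R 4.3.3), with lmFit and eBayes allowing an intensity trend, and p-values adjusted by Benjamini-Hochberg across the 27022 probe sets kept. A gene stands for its brightest kept probe set unless a probe set is named. Intervals are unadjusted 95% intervals of that fit. The number of arrays limits the precision. The fit was tested on simulated data. Probe sets were named from the platform annotation; the identifiers of 8 of 8 members gave the same symbol in RefSeq (GRCm38.p6), which also gave neighbours and promoters. Genes named beyond the members are Ctnnb1, the 4 with the smallest p of each of 3 tight junction lists, 4 epithelial genes and the 3 nearest in pattern; Cldn5, Cldn9, Marveld2, Tjp1, Snai2, Zeb1 and Grhl2 were named after their values were seen, as were the erythroid genes and the marker genes given at their highest signal. Members, lists and tests were chosen with earlier results of these data known. Alternatives covered other filters, a pseudocount or floor of 16, quantile and median scaling, other variance models, array weights, a replicate block, the average over a gene's probe sets and each array left out.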

Additional observations from a re-analysis of the deposited data

How the results depend on the processing

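The count of member probe sets past the threshold (limma with Benjamini-Hochberg adjustment) was 0 in all 17 alternatives, and that of other tight junction genes was 0 in all 18. The latter count takes each gene by its brightest probe set or by the mean of its kept probe sets. It does not cover the second Zeb2 probe set (1422748_at, limma adjusted p = 0.0789 in the main fit) by itself. At an unadjusted limma p under 0.05 the members numbered 0, except without the intensity trend, where there was 1, from Cldn1. Of 219 recomputed member differences, 207 kept their sign and 12 changed it, none ending farther from zero than -0.075. With array weights Cldn6 was at 0.005. With each array left out in turn, Cldn6 ran from -0.1 to 0.051, Cldn4 from -0.186 to 0.036, the dimmer Ocln probe set from -0.038 to 0.241 and the second Cldn1 probe set from -0.059 to 0.248. The Cldn3 probe sets ran from -0.225 to 0.065 (1434651_a_at), -0.22 to 0.018 (1451701_x_at), -0.075 to 0.217 (1426332_a_at) and -0.021 to 0.229 (1460569_x_at). Members that kept their sign moved too with 1 array left out, Cldn7 from -0.276 to -0.089, Cldn8 from 0.084 to 0.248, F11r from 0.04 to 0.152 and the brighter Ocln probe set from -0.308 to -0.048. The brighter Cldn1 probe set stayed between 0.326 and 0.611 over its 16 alternatives, with a smallest adjusted p of 0.395. The 12 other tight junction genes recomputed were those with the smallest p in each list. Cldn5, Cldn9, Marveld2, Tjp1, Snai2, Zeb1 and Grhl2 were not among them. All 214 recomputed differences of the 12 kept their sign but not their size. As the 12 were picked by p in these same data, the kept signs are no support for their differences. With 1 array left out Lsr ran from -0.656 to -0.042, Snai1 from -0.667 to -0.084 and Prkcz from -0.629 to -0.133. Lsr and Snai1 were nearest zero without normal replicate 1 and Prkcz without knockout replicate 3. By the mean of their probe sets Epcam was at -0.051 and Crb3 at -0.111. The background moved more. Without the intensity trend 41 probe sets and 15 genes passed, against 157 and 75. With each array left out, 49 to 148 probe sets and 15 to 63 genes passed, fewest without knockout replicate 3, and the genes numbered 20 on dropping knockout replicate 1, 25 on dropping knockout replicate 2, then 41 for normal replicate 3 and 47 for normal replicate 2. With the replicate block 43 genes passed, and the block changed no member's call; deviations of same-numbered arrays from their group means correlated at 0.08, -0.11 and -0.20, so the numbers were not taken to pair the samples. The cause of these shifts was not tested. Dim probe sets such as those of Cldn1 limit what could be seen: their intervals allow changes of 1.5-fold or more. The same holds for both Ocln probe sets, which were brighter than those of Cldn1. Their 95% intervals ran from -0.62 to 0.28 (1448873_at) and from -0.36 to 0.65 (1440220_at).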
